A study of Mus musculus with 18 samples.

Results

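The transcripts of 53 cell cycle genes were followed in single cells of the mouse heart after birth. The set was given by name, and its members are 34 mitotic genes, 11 genes of DNA synthesis, 4 G1 cyclins and 4 others. All 53 were present among the 35808 genes of the count matrices, so no member was lost at this step. The 18 samples are nanowell chips on which single cells were lysed and their transcripts counted by unique molecular identifiers (UMIs). Of these, 2 chips held heart cells of postnatal day 4 (P4), 2 of P7, 2 of P14 and 6 of P28, from mice without a knockdown. All came from the strain labelled Myh6/Esr1-Tomato, in which tamoxifen switches on a TDtomato reporter in cardiomyocytes (CMs). The paper reports that mothers of its lineage-tracing mice received tamoxifen in the first days after delivery. The other 6 chips held P28 cells of mice of the same strain that had received a lentivirus with a hairpin against Jun (shJun) or a control hairpin (shNT) at P1, with 2 animals for each hairpin. P4 and P7 hearts were digested with a kit, whereas P14 and P28 hearts were perfused with enzyme, so digestion changed with age between P7 and P14 and the effects of both cannot be told apart. Low-speed centrifugation separated CMs from non-CMs before dispensing. Each chip held 1 stage, and both chips of P4, like both chips of P7, held the same 2 animals, so the spread below is that between chips and the p-values may measure technical spread only.

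The cell cycle is driven by cyclins and their kinases. D-type and E-type cyclins carry a cell through G1 and release the E2F factors, which switch on the genes of DNA synthesis, and later the DREAM complex gives way to B-MYB and FOXM1 at the promoters of mitotic genes, which share a short element called CHR. Mouse CMs stop dividing during the first week or so after birth while they grow and become polyploid, and the endothelial cells, fibroblasts and macrophages around them go on dividing for longer.

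The promoters of the members are shown first, whether or not a member was called in the tests below. RefSeq windows on GRCm38.p6, the assembly behind mm10, were available for 43 of the 53 members, and each ran from 250 bases before to 50 bases after the gene start. CHR words (TTTGAA or TTTAAA) were found on either strand in 31 of 43 members (72.1%) against 30.6% of all 27025 genes with a window. In the mitotic list 25 of 29 matched members held one (86.2%), and Cenpm, Bub1, Nusap1 and Nuf2 did not. In the list of DNA synthesis 4 of 10 did (40.0%). The CCAAT word, which NF-Y binds, was present in 79.1% of members and 41.1% of all genes. CHR and CCAAT stood in 1 window in 62.8% of members and 13.4% of all genes. An E2F word (TTTGGCGC, TTTGCCGC, TTTCGCGC or TTTCCCGC) was present in Cenpm, Cdk1, Pclaf, Mcm3, Mcm5, Mcm6, Mcm7 and Brca2, which are 18.6% of the members, and in 2.60% of all genes. These are matches of letters on both strands, overlapping matches included, and binding was not measured.

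Windows of 6 members that the results turn on are printed 5′ to 3′ along the gene, with CHR, CCAAT and E2F words on either strand in capitals. Ccnb1, which encodes the cyclin of mitotic entry, lies at chr13:100786437-100786736 on the minus strand. Cdk1, the kinase partner of that cyclin, lies at chr10:69352863-69353162 on the minus strand, and Top2a, a topoisomerase that untangles replicated DNA, at chr11:99024140-99024439 on the minus strand. Prc1, a crosslinker of the central spindle, lies at chr7:80294201-80294500 on the plus strand. Pclaf, a partner of the replication clamp, and Mcm5, a subunit of the replicative helicase, lie at chr9:65890073-65890372 and chr8:75109259-75109558, both on the plus strand.
Ccnb1: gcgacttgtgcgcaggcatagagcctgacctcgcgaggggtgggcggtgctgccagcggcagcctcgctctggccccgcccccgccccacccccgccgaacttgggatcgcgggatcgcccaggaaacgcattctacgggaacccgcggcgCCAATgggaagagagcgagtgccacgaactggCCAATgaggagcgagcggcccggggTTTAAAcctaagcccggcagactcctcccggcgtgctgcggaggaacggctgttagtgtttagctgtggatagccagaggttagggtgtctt
Cdk1: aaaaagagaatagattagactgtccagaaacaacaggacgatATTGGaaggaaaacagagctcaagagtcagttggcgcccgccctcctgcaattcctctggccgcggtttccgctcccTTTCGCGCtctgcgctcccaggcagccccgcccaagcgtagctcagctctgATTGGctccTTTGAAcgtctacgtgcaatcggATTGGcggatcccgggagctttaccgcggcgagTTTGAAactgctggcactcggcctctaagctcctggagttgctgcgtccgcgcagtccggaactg
Top2a: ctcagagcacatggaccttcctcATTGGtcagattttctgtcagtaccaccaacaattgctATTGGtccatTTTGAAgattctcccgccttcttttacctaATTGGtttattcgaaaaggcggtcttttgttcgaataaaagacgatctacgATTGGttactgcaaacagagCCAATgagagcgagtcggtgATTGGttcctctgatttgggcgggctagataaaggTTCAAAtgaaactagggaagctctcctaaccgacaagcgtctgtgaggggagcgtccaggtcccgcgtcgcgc
Prc1: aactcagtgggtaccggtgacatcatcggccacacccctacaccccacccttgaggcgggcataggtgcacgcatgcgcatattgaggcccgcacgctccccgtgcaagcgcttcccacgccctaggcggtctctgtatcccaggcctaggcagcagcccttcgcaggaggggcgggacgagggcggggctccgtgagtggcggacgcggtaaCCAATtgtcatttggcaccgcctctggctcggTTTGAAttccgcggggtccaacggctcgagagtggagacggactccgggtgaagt
Pclaf: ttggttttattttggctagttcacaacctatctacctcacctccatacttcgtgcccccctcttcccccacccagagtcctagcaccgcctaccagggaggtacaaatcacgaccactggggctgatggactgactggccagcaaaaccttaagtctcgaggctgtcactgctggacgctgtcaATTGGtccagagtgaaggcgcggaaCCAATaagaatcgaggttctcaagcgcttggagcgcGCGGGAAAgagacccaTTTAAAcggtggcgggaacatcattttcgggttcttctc
Mcm5: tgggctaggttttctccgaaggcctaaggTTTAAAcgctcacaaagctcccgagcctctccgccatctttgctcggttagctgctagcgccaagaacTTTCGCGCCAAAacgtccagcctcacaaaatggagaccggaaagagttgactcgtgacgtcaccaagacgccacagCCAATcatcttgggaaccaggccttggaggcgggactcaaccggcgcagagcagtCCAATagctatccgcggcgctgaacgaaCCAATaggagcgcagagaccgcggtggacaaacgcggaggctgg
Counted from the gene start, the CHR word of Ccnb1 began at position -42 and its CCAAT words at -99 and -67. In Cdk1 an E2F word at -131 stood upstream of CHR words at -71 and -15. Mcm5 held overlapping E2F words at -153 and -149, with a CHR word only at -221.

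Between 11161784 and 133264535 UMIs were counted per sample. A total of 19851 cells passed filtering, and 15335 of them held at least 5000 UMIs. Clusters built without cell cycle genes were called CM-like, endothelial-like, fibroblast-like or macrophage-like from marker lists. In samples without a knockdown these held 3213, 2290, 2378 and 1074 cells. Markers of the own class were 472, 70.9, 174 and 106 of every 10000 UMIs in these classes. In the non-CM classes, endothelial-like, fibroblast-like and macrophage-like, CM markers still reached 92.2, 66.9 and 44.8 of 10000 UMIs, so RNA of CMs was present in wells of every class. This RNA differed between the stages. From P4 to P28 it went from 112 to 14.6 of 10000 UMIs in endothelial-like cells, with 106 and 110 at P7 and P14. In fibroblast-like wells it declined from 89.4 to 9.21, and in macrophage-like wells from 146 to 13.5. At P28 the chips with at least 20 CM-like cells were replicates 1, 3 and 5. Those with as many endothelial-like and macrophage-like cells were replicates 2, 4 and 6. Both chips of P4 and of P14 held all of these classes, so age and this split of the P28 chips cannot be told apart. The part of this RNA in the differences between late and early samples of these classes was not tested. CM-like cells at P4 included a cluster of 212 of 319 cells led by the atrial genes Sln, Myl7 and Nppa. Of 5070 barcodes, 4902 were shared by more than 1 chip, and the same barcode on different chips is a different well.

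For the share of wells with a cell cycle programme, each cell was thinned to 5000 UMIs, and 4516 shallower cells were left out (24.9, 15.4, 9.86 and 41.2% of the cells of the 4 stages in order of age, and 11.2% of the knockdown cells). A well was first called cycling when at least 3 of the 34 mitotic genes had a UMI. Under that rule the share was 36.1% of 1776 wells at P4, 50.7% of 2053 at P7, 0.456% of 1535 at P14 and 5.59% of 3701 at P28. However, 245 of 479 wells (51.1%) of unnamed clusters led by globin genes and 27 of 60 B-cell-like wells at P7 (45.0%) also passed at 3 genes. Without the globin genes, the globin-led clusters of P4 and P7 scored highest for CM markers, and B cells can divide. Whether these wells held dividing cells or free RNA was not tested, and shares near these values at P4 and P7 are not read as dividing cells on their own. None of 90 control wells reached 3 genes, but their median depth was 198 UMIs.

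A rule of at least 10 mitotic genes, chosen after the data had been seen, kept 8 of the 479 globin-led wells (1.67%) and 1 of the 60 B-cell-like wells (1.67%). Over all classes, 168 wells passed at P4 (9.46%) and 170 at P7 (8.28%). At P14 only 5 of 1535 did (0.326%), and at P28 50 of 3701 (1.35%, exact binomial 95% interval 1.0 to 1.78%, counting error only).

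**Figure D1:**
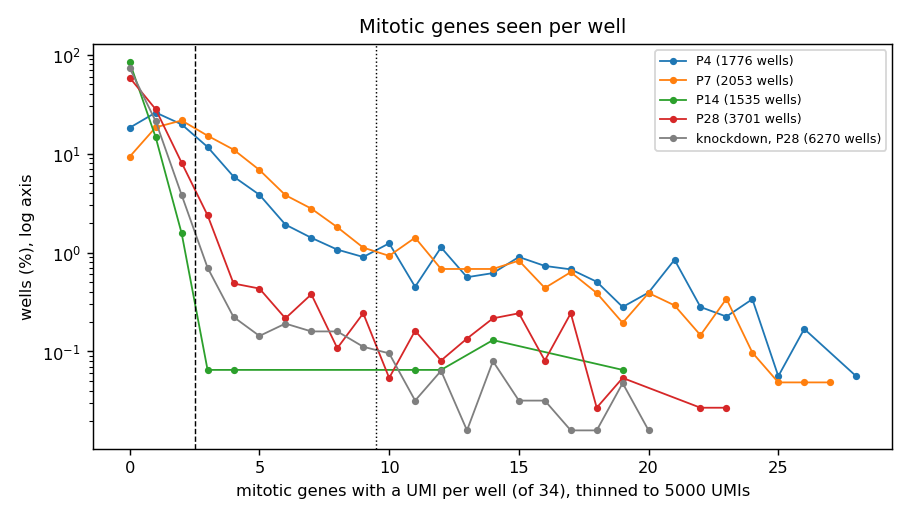
Share of thinned wells (percent, log axis) against the number of the 34 mitotic genes seen in a well, 1 line per stage, with vertical lines at 3 and 10 genes. Lines of P4 (1776 wells) and P7 (2053 wells) run above those of P14 (1535 wells), P28 (3701 wells) and the knockdown samples (6270 wells) at each number of genes from 3 to 24.

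CM-like wells with 10 or more mitotic genes were 19 of 304 at P4 (6.25%, exact binomial interval 3.80 to 9.59%) and 5 of 41 at P7 (12.2%, 4.08 to 26.2%). None of 539 was seen at P14 (exact interval 0 to 0.682%), and 8 of 1467 were seen at P28 (0.545%, 0.236 to 1.07%). Of these 8 wells, 7 came from P28 replicate 1 (7 of 544 wells), against 0 of 553 on replicate 3 and 1 of 357 on replicate 5. Without replicate 1 the share at P28 was 1 of 923 (0.108%, exact interval 0.00274 to 0.602%). The share per chip was 7.04% ± 1.49 (SD, n = 3 chips) at P4 and P7, against 0.313% ± 0.557 (n = 5 chips) at P14 and P28. No later chip reached the earlier ones, and an exact two-sided permutation test over chips gave p = 0.0357, the smallest that 3 against 5 chips allow, with a Benjamini-Hochberg adjusted value of 0.0476 over 4 classes. Without P28 replicate 1 the late mean was 0.070% ± 0.14 (n = 4 chips), and the exact permutation p of 0.0571 is the smallest those chips allow. In the atrial-led cluster 15 of 207 wells (7.25%) passed at 10 genes, so this cluster held 15 of the 19 P4 wells that passed. No CM-like cluster of P7, P14 or P28 was led by Sln and Myl7, so chamber and age are confounded in part of this comparison. Without the atrial-led cluster the late minus early difference at 10 genes was not tested. Under the rule of 3 genes that difference was -30.0 percentage points, but early shares at 3 genes are not read as dividing cells on their own.

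The 8 CM-like wells of P28 held a median of 125 UMIs of CM markers (75 to 270) of 5000, against 242 in wells with up to 2 mitotic genes. Endothelial markers stood at a median of 19.5 UMIs (0 to 43) against 4, and macrophage markers were at 1 (0 to 28) against 0. 2 of these 8 wells lay in a cluster led by chemokine genes. The part of other cells in these wells was not tested, since no doublet caller was run.

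In endothelial-like cells 47 of 317 wells passed at 10 genes at P4 (14.8%) and 74 of 643 at P7 (11.5%), against 3 of 476 at P14 (0.630%) and 3 of 358 at P28 (0.838%). Per chip the share fell from 13% ± 2.01 (n = 4) to 0.640% ± 0.699 (n = 5, exact permutation p = 0.0159, adjusted 0.0318). Fibroblast-like wells passed in 75 of 611 cases at P4 (12.3%) and 50 of 635 at P7 (7.87%), then in 0 of 130 at P14 and 4 of 575 at P28 (0.696%). Per chip this was a fall from 9.94% ± 3.02 (n = 4) to 0.564% ± 0.809 (n = 5, exact permutation p = 0.0159, adjusted 0.0318). Both were the smallest p-values that 4 against 5 chips allow.

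Macrophage-like cells gave 5 of 103 wells at P4 (4.85%), 7 of 66 at P7 (10.6%), 1 of 69 at P14 (1.45%) and 23 of 563 at P28 (4.09%, 2.61 to 6.07%). The early chips differed from each other, with 4 of 46 (8.70%) and 1 of 57 (1.75%) at P4 and 6 of 38 (15.8%) and 1 of 28 (3.57%) at P7. The mean per chip was 7.45% ± 6.29 (n = 4) early and 2.87% ± 1.64 (n = 5) late, a difference of -4.58 percentage points that did not pass the exact permutation test (p = 0.206). Of the 50 wells of P28 with 10 or more genes, 23 were macrophage-like, 11 T-cell-like, 8 CM-like, 4 fibroblast-like, 3 endothelial-like and 1 endocardial-like. The 48 granulocyte-like wells of P28, a class of blood cells that has stopped dividing, held none at 10 genes (exact interval 0 to 7.40%).

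At 3 or more genes the shares per chip were 21.0 and 20.5% (29 of 138 and 34 of 166 wells) in CM-like cells at P4 and 39.1% (9 of 23) on the single P7 chip with enough cells. On the P14 chips 0 of 314 and 1 of 225 wells passed (0.444%), and on the P28 chips 4.04, 1.63 and 1.96%. Endothelial-like shares were 40.0 and 59.9% on the P4 chips, 52.2 and 62.1% on those of P7, then 0.865 and 0% at P14, and 8.40, 0.654 and 6.49% on the P28 chips. Early and late chips did not overlap in either class, although the early values, from 20.5 to 62.1%, lie around the 45.0 and 51.1% of the B-cell-like and globin-led wells.

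Fibroblast-like shares at 3 genes were 29.8 and 37.9% at P4, 33.7 and 52.6% at P7, 0 of 100 and 0 of 30 wells at P14, and 8.77, 0.571 and 1.06% at P28. The exact intervals of the P14 chips reach 3.62 and 11.6%. Macrophage-like shares were 30.4 and 43.9%, 50 and 53.6%, 0 and 6.45%, and 13.8, 9.96 and 13.5% at P4, P7, P14 and P28. These groups also did not overlap.

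In all 4 classes the mean share at 3 genes was lower late than early, by 25.3 points in CM-like cells (26.9 ± 10.6 to 1.62 ± 1.58%), 50.3 in endothelial-like cells (53.5 ± 9.97 to 3.28 ± 3.88%), 36.4 in fibroblast-like cells (38.5 ± 9.95 to 2.08 ± 3.77%) and 35.7 in macrophage-like cells (44.5 ± 10.2 to 8.73 ± 5.72%). Exact two-sided permutation p was 0.0357 for CM-like cells (adjusted 0.0357) and 0.0159 for each other class (adjusted 0.0212), again the smallest possible. Without thinning the early and late means were 61.4 and 4.10, 68.4 and 6.78, 58.4 and 5.98, and 62.7 and 12.0%. In the list of DNA synthesis, wells with at least 3 of 11 genes fell in all classes, from 9.05 to 0.256% (CM-like), 18.1 to 1.70% (endothelial-like), 15.2 to 0.502% (fibroblast-like) and 19.6 to 3.79% (macrophage-like), with the same exact p-values. Without P28 the differences kept their direction, and the chips left allow no p below 0.20 in CM-like cells and 0.133 in the others.

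**Figure D2:**
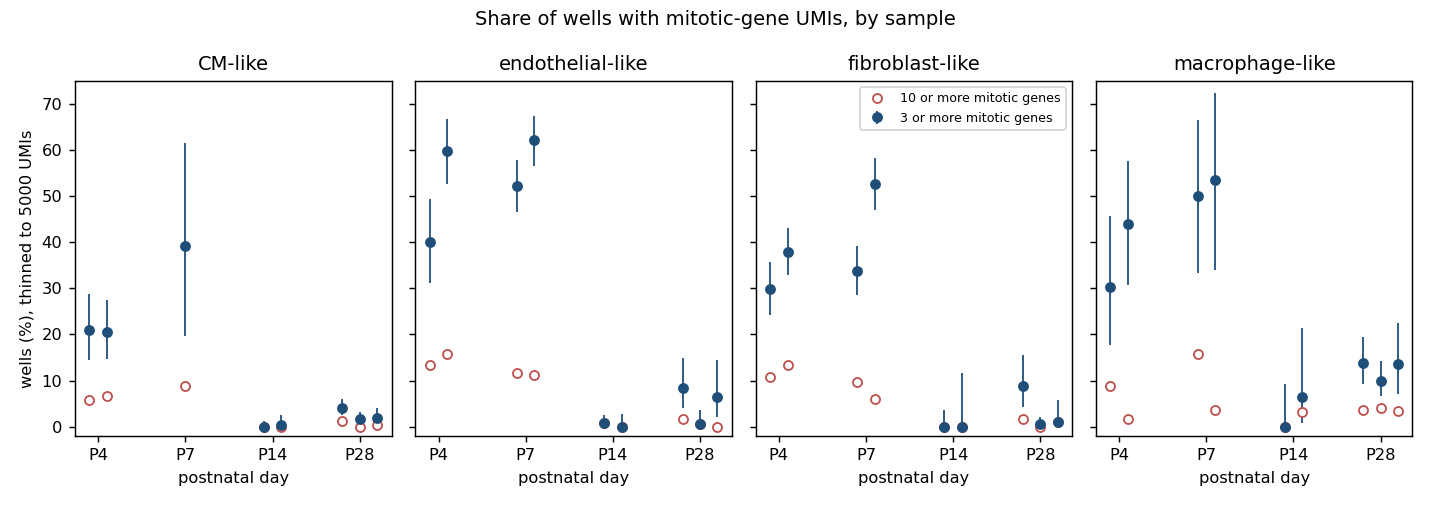
Percent of wells with at least 3 (filled, with exact 95% binomial intervals) and at least 10 (open) of the 34 mitotic genes, 1 point per chip, by stage, in 4 panels for CM-like, endothelial-like, fibroblast-like and macrophage-like cells. The P28 points of macrophage-like cells, at 9.96 to 13.8% for 3 genes, stand above the P14 points of 0 and 6.45%.

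On the 4 chips of P4 and P7 the classes could be compared within a chip, at 3 genes. Endothelial-like shares were above fibroblast-like shares on 4 of 4 chips, by 15.1 points (SD 6.16), and above macrophage-like shares by 9.08 points (SD 5.66). Fibroblast-like shares were 5.98 points (SD 7.27) below macrophage-like shares. Each of the 3 paired comparisons gave an exact p of 0.13, the smallest that 4 chips allow, and none therefore passed. At 10 genes the endothelial-like shares were 3.08 points (SD 1.44) above the fibroblast-like ones on 4 of 4 chips (exact p = 0.13). They were 5.57 points (SD 7.52) above the macrophage-like ones on 3 of 4 chips (exact p = 0.25), with P7 replicate 1 the other way. Fibroblast-like shares turned to 2.49 points (SD 7.28) above macrophage-like shares, on 3 of 4 chips (exact p = 0.62).

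UMIs of each class were then summed per chip, given as CPM (the UMIs of a gene scaled to the UMIs of the sum) and tested over all genes by quasi-likelihood in edgeR, with p-values adjusted after Benjamini and Hochberg, late (P14 and P28) against early (P4 and P7). In sums, fewer cells with a transcript, less transcript per cell and less free RNA in the wells cannot be told apart. Control wells held mitotic-gene UMIs at 1837 CPM at P4 and P7 and at 757 CPM at P14 and P28, from 4 and 7 UMIs. The part of free RNA in the changes below was not tested. In CM-like cells 37 of 53 members were lower and none higher, against 3.70% of 15893 genes lower, and the median log2 change of the members was -2.91 (0.39 over all genes). In endothelial-like cells 38 of 53 were lower, against 2.95% of all genes (medians -3.42 and -0.02). Fibroblast-like cells had 36 of 52 tested members lower against 2.13% (medians -4.68 and -0.16). Macrophage-like cells had 9 of 49 lower against 1.33% (medians -2.11 and -0.01), and none was higher in any class. Without P7 replicate 2, 23 members passed in fibroblast-like cells, and the share over all genes was not counted there.

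Of the mitotic list, the largest of the lists, 26 of 34 were lower in CM-like, 27 of 34 in endothelial-like, 28 of 34 in fibroblast-like and 5 of 33 in macrophage-like cells. In the list of DNA synthesis the numbers were 6, 6, 5 and 3 of 11. G1 cyclins were lower in 2, 3 and 2 of 4 and in 1 of 3. Low members are at 0 on both P14 chips in some classes (18 in fibroblast-like sums), where the size of a fitted change depends on the prior count and only the levels are read.

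Mki67, the antigen by which dividing cells are stained, stood at 88.0 and 131 CPM in CM-like sums at P4 and at 268 CPM at P7. It stood at 22.9 and 1.08 CPM at P14 and at 34, 19.6 and 12.4 CPM at P28. The early and late CM-like sums did not overlap, and Mki67 was lower by a log2 change of -3.39 (SE 0.56, edgeR adjusted p = 0.00124). In endothelial-like sums it was 209 and 386, then 495 and 622, then 83.2 and 0.590, then 21.6, 38.7 and 80.1 CPM from P4 to P28. In fibroblast-like sums the values were 236 and 269, 382 and 365, 3.10 and 0, and 5.02, 21.0, 12.6 and 16.0 CPM. Both classes showed no overlap, and the log2 changes were -3.19 (SE 0.63, adjusted p = 0.00470) and -5.81 (SE 0.53, adjusted p = 3.05e-06, the smallest of all members in fibroblast-like cells) in edgeR.

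In macrophage-like sums the periods overlapped. Mki67 was 285 and 192 CPM at P4, 335 and 228 CPM at P7, 8.27 and 102 CPM at P14, and 115, 146 and 341 CPM at P28. The highest P28 sum lay above all early sums, and Mki67 was not called there (log2 change -1.31, SE 0.54, edgeR adjusted p = 0.185).

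Top2a was lower in all 4 classes. CM-like sums held 83.1, 116 and 102 CPM early and between 4.32 and 21.5 CPM late. Endothelial-like sums fell from 205, 316, 362 and 289 CPM to between 8.99 and 26.3 CPM (log2 change -3.98, SE 0.38, edgeR adjusted p = 4.65e-06). Macrophage-like sums were 301, 175, 275 and 129 CPM early, 4.96 and 9.09 CPM at P14 and 85.3, 81.5 and 61.9 CPM at P28. The groups did not overlap, and the macrophage-like change of Top2a was -3.25 (SE 0.52, edgeR adjusted p = 0.00141).

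Genes of the spindle had the smallest adjusted p-values in CM-like cells. Prc1 stood at 101 and 147 CPM at P4, 374 CPM at P7, 5.71 and 1.44 CPM at P14, and 16.2, 5.17 and 8.60 CPM at P28. Early and late sums were far apart (log2 change -5.15, SE 0.48, edgeR adjusted p = 1.38e-05). Spc25, a kinetochore subunit, changed by -4.57 (SE 0.45) and Hmmr, a spindle-binding protein, by -6.18 (SE 0.61), with edgeR adjusted p-values of 1.88e-05 and 1.90e-05. Birc5, also called survivin and a subunit of the chromosomal passenger complex, followed (-4.41, SE 0.47), and then Cenpm of the inner kinetochore (-6.05, SE 0.71). In fibroblast-like cells Tpx2, a spindle assembly factor, changed by -5.61 (SE 0.71, edgeR adjusted p = 7.27e-05), and in endothelial-like cells Cdca8, another passenger subunit, by -4.00 (SE 0.53, edgeR adjusted p = 0.000137).

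The cyclins and kinase of mitosis were lower in at least 2 classes each. Cdk1 was at 24.4, 41.9 and 10.9 CPM in early CM-like sums, 9.02 and 0.360 CPM at P14, and 3.4, 3.25 and 3.78 CPM at P28. It was called lower in all 4 classes, with log2 changes of -2.22 (SE 0.65), -3.91 (SE 0.74), -5.03 (SE 0.98) and -3.69 (SE 0.86) in CM-like, endothelial-like, fibroblast-like and macrophage-like cells. Ccna2, the cyclin of S phase and G2, stood at 11, 16.1 and 19.2 CPM early and at 0.720 to 3.16 CPM late in CM-like sums (log2 change -3.68, SE 0.67, edgeR adjusted p = 0.00254). Its macrophage-like sums overlapped, at 12.0 to 54.2 CPM early and 0 to 37.3 CPM late, and were not called (edgeR adjusted p = 0.260). Ccnb1 was at 3.88, 10.9 and 12.8 CPM early and below 1 CPM in every late CM-like sum (log2 change -4.16, SE 0.82, edgeR adjusted p = 0.00439). In macrophage-like cells at P14, 54 of 63 Ccnb1 UMIs came from 1 cell, and on replicate 2 1 of 36 cells held 95 UMIs of Hmmr. With each cell thinned to at most 5000 UMIs, 16 members in place of 37 were called in CM-like cells, and Cdk1 and Ccnb1 were no longer among them (log2 changes 0.66 and 0.59, edgeR adjusted p = 0.917 and 0.929). The share over all genes with this thinning was not counted.

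**Figure D3:**
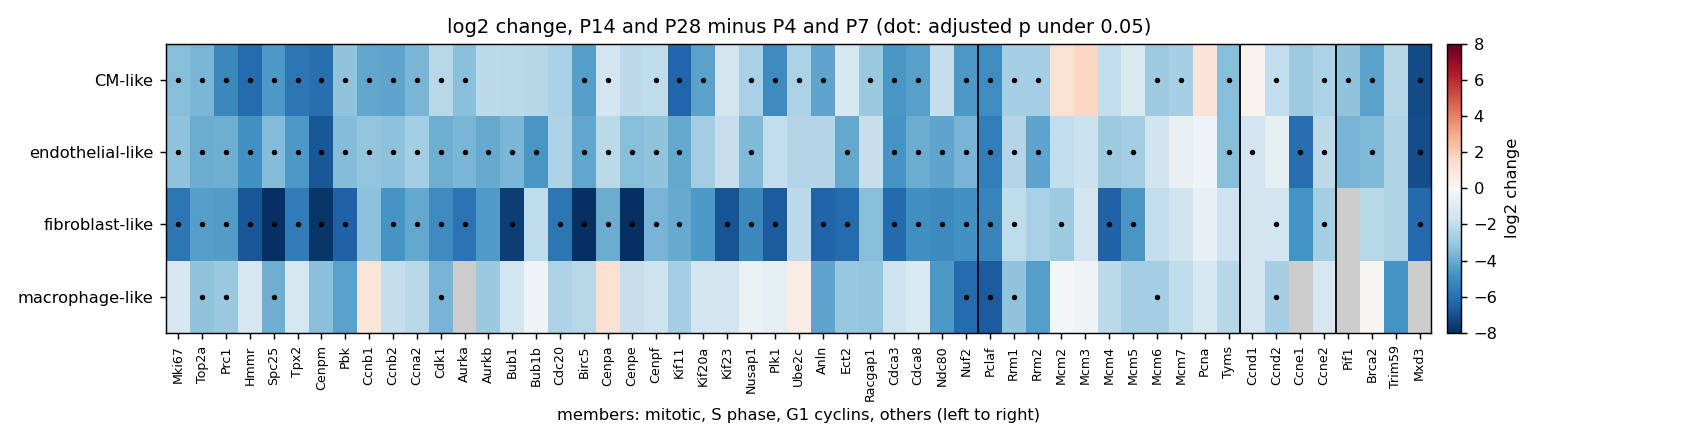
Log2 change late minus early (colour) of the 53 members along the horizontal axis, ordered by list, in the 4 cell classes along the vertical axis, with a dot where the edgeR adjusted p was under 0.05 and grey where a gene was not tested. Dots fill most of the mitotic columns in CM-like (26 of 34), endothelial-like (27 of 34) and fibroblast-like cells (28 of 34) and few in macrophage-like cells (5 of 33).

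Among genes of DNA synthesis, Pclaf showed the clearest fall. Endothelial-like sums held 99.7, 88.0, 144 and 129 CPM early, 1.21 and 0.590 CPM at P14 and 8.10, 2.66 and 6.74 CPM at P28 (log2 change -5.55, SE 0.53, edgeR adjusted p = 4.65e-06). Macrophage-like sums held 109, 53.6, 187 and 111 CPM early, 0 on both P14 chips and 19.0, 10.3 and 33.4 CPM at P28 (edgeR adjusted p = 0.00171). The groups stood apart in both classes. Rrm1, the large subunit of ribonucleotide reductase, was also lower in all 4 classes, from 82.7, 80.2 and 41.0 CPM to between 0.902 and 27.9 CPM in CM-like sums (log2 change -2.67, SE 0.48, edgeR adjusted p = 0.00235). Rrm2, its small subunit, was called in CM-like and endothelial-like cells (log2 changes -2.73 and -4.19, SE 0.79 and 0.81), and its changes in the other classes were -2.57 and -4.43 with edgeR adjusted p of 0.0955 and 0.132.

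Tyms, which makes thymidylate, was 13, 25.8 and 35.9 CPM early and 0.720 to 11.2 CPM late in CM-like sums (log2 change -3.39, SE 0.59, edgeR adjusted p = 0.00192). In fibroblast-like sums the late values of Tyms spread from 17.3 to 96.0 CPM and overlapped the early ones of 66.3 to 136 CPM, with no call (edgeR adjusted p = 0.0728). Mcm5 was called in endothelial-like (log2 change -2.80) and fibroblast-like cells (-4.65, edgeR adjusted p of 0.0247 and 0.00352). In CM-like sums it was at 21.2 and 19.0 CPM at P4 but 0.641 CPM at P7 and 0.360 to 3.61 CPM late, with no call (edgeR adjusted p = 0.496).

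Pcna, the sliding clamp of replication that also serves DNA repair, was not called in any class. CM-like sums held 25.1 and 31.3 CPM at P4, 3.20 CPM at P7, 24.7 and 13 CPM at P14, and 31.0, 17.4 and 14.3 CPM at P28. Endothelial-like sums held 73.4 to 83.6 CPM early and 40.3 to 81.6 CPM late. Groups overlapped in both, and the log2 changes of Pcna were 1.06 (SE 0.55, edgeR adjusted p = 0.229) in CM-like, -0.36 (SE 0.36, adjusted p = 0.618) in endothelial-like, -0.59 (SE 0.45, adjusted p = 0.511) in fibroblast-like and -1.30 (SE 0.65, adjusted p = 0.284) in macrophage-like cells.

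D-type cyclins start the passage through G1. Ccnd1 stood at 374, 453, 504 and 305 CPM in early endothelial-like sums and at 145, 101, 155, 208 and 127 CPM in late ones, with no overlap (log2 change -1.52, SE 0.29, edgeR adjusted p = 0.00356). In CM-like sums Ccnd1 was at 6.77 and 12.3 CPM at P4, 63.4 CPM at P7 and 12.9 to 42.4 CPM late, with no call (log2 change 0.28, edgeR adjusted p = 0.742). Ccnd2 was lower in CM-like sums, at 370, 434 and 416 CPM early and 93.5, 103, 64.9, 157 and 103 CPM late (log2 change -1.99, SE 0.36, edgeR adjusted p = 0.00253). These sums did not overlap, whereas the endothelial-like change of Ccnd2 was -0.73 (edgeR adjusted p = 0.140). In macrophage-like sums Ccnd2 went from 74.2 to 352 CPM early to 18.2 to 64.4 CPM late (log2 change -2.67, SE 0.53, edgeR adjusted p = 0.00773). E-type cyclins bring on DNA synthesis. Ccne2 was lower in CM-like, endothelial-like and fibroblast-like cells (log2 changes -2.55, -2.11 and -2.73, SE 0.64, 0.57 and 0.73, edgeR adjusted p of 0.0187, 0.0335 and 0.0388), and Ccne1 passed in endothelial-like cells (edgeR adjusted p = 0.00732).

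**Figure D4:**
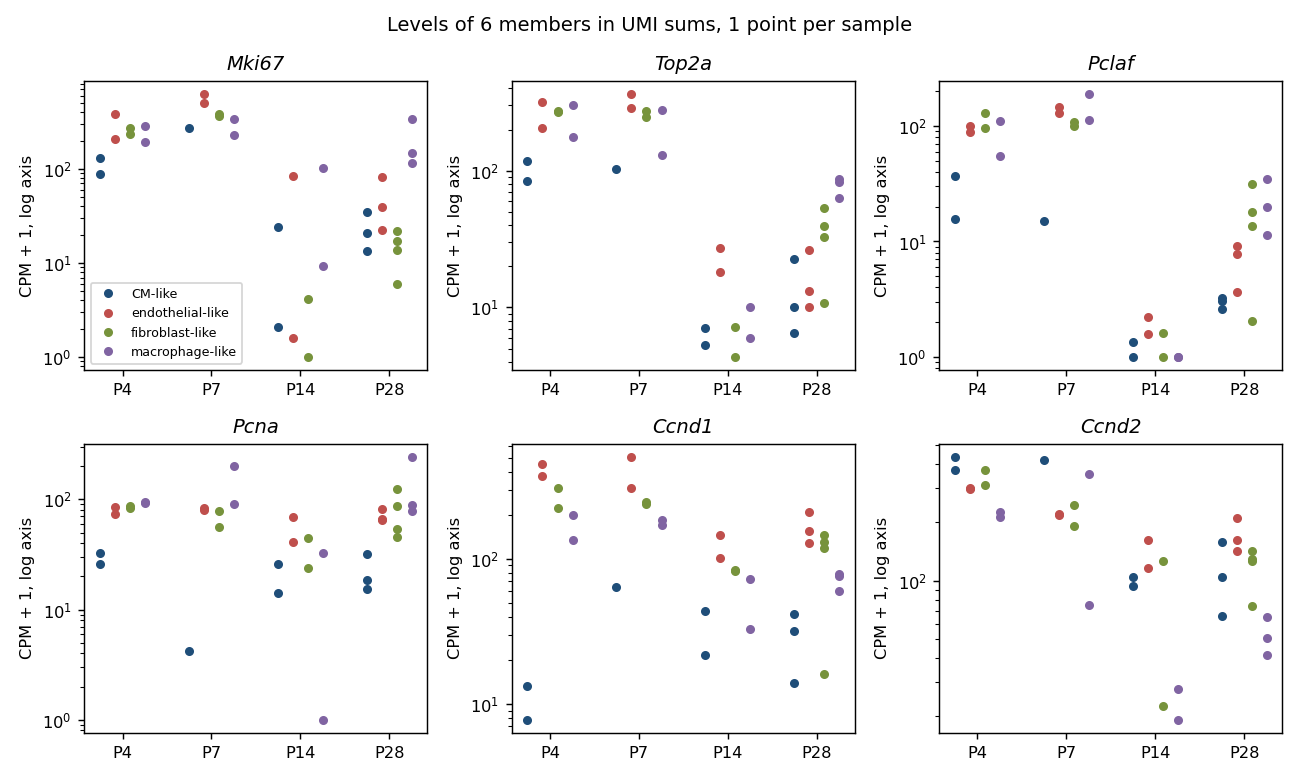
CPM plus 1 (log axis) of Mki67, Top2a, Pclaf, Pcna, Ccnd1 and Ccnd2 in the sums of each class, 1 point per chip, by stage. Mki67, Top2a and Pclaf drop between P7 and P14, Pcna stays within 3.20 to 31.3 CPM in CM-like sums, and Ccnd2 of CM-like sums falls from 370 to 434 CPM early to 64.9 to 157 CPM late.

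The members called lower in CM-like, endothelial-like, fibroblast-like and macrophage-like cells alike included Top2a, Prc1, Pclaf, Spc25, Nuf2, Cdk1 and Rrm1. Whether macrophage-like cells differed from the others was tested in 1 fit over the 36 class sums, in which sums of 1 chip were treated as independent. No member passed in the comparison of macrophage-like with CM-like, endothelial-like or fibroblast-like cells, in edgeR with Benjamini-Hochberg adjustment over 19641 genes. Of all genes 0.565, 0.148 and 0.148% did. Members with an unadjusted p under 0.05 were 13, 10 and 15 of 53, against 13.3, 10.4 and 11.8% of all genes. The change of the macrophage-like sums minus that of the other class was above 0 in 29, 35 and 41 of the 53 members, with medians of 0.24, 0.66 and 1.86 (-0.63, -0.03 and 0.23 over all genes). Without P14 replicate 1, 4, 7 and 6 members passed, and the shares over all genes in that fit were not counted. The test thus neither shows a smaller change in macrophage-like cells nor that the changes were alike. In the fit of macrophage-like cells alone, without P14 replicate 2, where single cells held most of the UMIs of Hmmr and Ccnb1, 18 members were called in place of 9. The share over all genes in that fit was not counted.

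Within the early and the late period few members passed. Between P4 and P7 only Pif1, a DNA helicase, was called in CM-like cells (log2 change 6.23, SE 1.10, edgeR adjusted p = 0.0196), against 0.333% of all genes higher, and all of its 126 UMIs at P7 came from 1 of 23 cells. No member passed in the other classes in edgeR, where 0.0140, 0.0193 and 0.0272% of all genes did. There 0, 0 and 4 of 53, 52 and 49 tested members had an unadjusted p under 0.05, against 4.43, 3.09 and 9.44% of all genes. CM-like cells had a single sum at P7, and such a count is not given for them. With DESeq2 the number in CM-like cells was 3.

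From P14 to P28 the median change of the members was above 0 in each class, but few passed. The median log2 change from P14 to P28 was 1.09, 0.75, 2.81 and 1.92 in the CM-like, endothelial-like, fibroblast-like and macrophage-like sums (0.06, 0.14, 0.31 and 0.23 over all genes), and 1.06, 0.72, 1.78 and 1.8 with the 2, 3, 18 and 9 members at 0 on one side set to their bound. Only Hmmr (4.11, SE 0.89) and Tpx2 (4.17, SE 0.93) passed, both in endothelial-like cells (edgeR adjusted p = 0.0220 and 0.0253), against 0.274% of all genes higher. In the other classes no member passed in edgeR, where 0.0315, 0 and 0.217% of all genes did. DESeq2 called 2, 6, 9 and 2 members in the 4 classes, and its share over all genes was not counted. In edgeR 9, 14, 22 and 25 of 53, 53, 52 and 49 tested members had an unadjusted p under 0.05. The shares of all genes under 0.05 were 9.61, 12.6, 13 and 11.4%.

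At P28 the members with a UMI in at least 2% of the cells of a class on at least 2 chips were counted, a rule of UMI presence that free RNA can meet. It was met by 17 of 53 members in CM-like cells, 28 in endothelial-like cells, 41 in fibroblast-like cells and 44 in macrophage-like cells. Granulocyte-like cells, of which 3 chips held 20 to 41 each, met it for 20 of 53. On such chips 1 cell with a UMI is enough, and no number of members is read as expression. Of the mitotic list 8, 14, 25 and 29 of 34 met it, and of the list of DNA synthesis 6, 10, 11 and 11 of 11. The 15 genes that met it in every class were Mki67, Top2a, Prc1, Cdk1, Cenpa, Cenpf, Mcm3, Mcm6, Mcm7, Pcna, Rrm1, Tyms, Ccnd1, Ccnd2 and Trim59. Granulocyte-like cells also met it for 10 of these 15, and not for Cdk1, Mcm3, Mcm7, Rrm1 and Trim59. No class met it for Aurka, Kif20a, Plk1, Nuf2, Ccne1, Pif1 or Mxd3, and 5 genes met it in 1 class, namely Aurkb, Cdc20, Ect2 and Ndc80 in macrophage-like and Bub1 in fibroblast-like cells. Depth differs between classes and chips (median 34710 UMIs in CM-like cells of P28 replicate 3, 5900.5 and 5356 on the other chips), and so these numbers of genes were not compared between classes.

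After thinning to 5000 UMIs, Ccnd2 was seen in 19.1 to 39.4% of CM-like and 18.2 to 31.9% of endothelial-like cells on the P28 chips. Pcna was seen in 3.08 to 8.64% of CM-like, 9.09 to 12.6% of endothelial-like, 10.6 to 29.4% of fibroblast-like and 18.1 to 22.5% of macrophage-like cells. Mki67 was seen in 2.80 to 7.54, 3.9 to 11.8, 0 to 9.65 and 8.99 to 18.0% of the 4 classes. Cenpf, a kinetochore protein, was seen in 7.17 to 22.1% of CM-like cells and Top2a in 1.68 to 5.88%. Cenpa, the histone variant of centromeres, was seen in 5.04 to 7.54%. Granulocyte-like cells, which should lack these transcripts, held Mki67 in 16.7, 0 and 15% of 12, 12 and 20 thinned cells on the 3 chips. They held Top2a in 8.33, 0 and 5.0%, Cenpa in 8.33, 8.33 and 0%, and Cenpf in 8.33, 0 and 0%. Pcna was seen there in 0, 16.7 and 20%, and Ccnd2 in 16.7, 8.33 and 10%. Shares at or below these, such as those of Mki67, Top2a and Cenpa in CM-like cells, are not read as expression at P28. The granulocyte-like shares rest on few cells, since 1 of 12 is 8.33%. Before thinning, 1 granulocyte-like cell of replicate 2 held 223 of its 237 Mki67 UMIs, and 1 cell held all 17 of Top2a. Whether such cells held free RNA, a second cell or transcripts of their own was not tested.

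The wells with 10 or more mitotic genes were selected by these genes, so the following shares of the mitotic list describe the wells and are not a test. At P28, 94.0% of the 50 wells held Mki67, 88.0% Birc5, 82.0% Top2a and 80.0% Prc1, against 7.29, 2.99, 5.23 and 2.99% of the other 3651 wells. Genes of DNA synthesis were not used for the choice. Pcna was seen in 42.0% of the wells with 10 or more genes and 10.9% of the others, Pclaf in 44.0 and 1.62%, Tyms in 32.0 and 4.11%, and Mcm5 in 12.0 and 1.64%. At P28 the D-type cyclins were not seen more often in the selected wells, with Ccnd1 in 10 and 14.3% and Ccnd2 in 20 and 23.9%. Wells of all classes are pooled here and at the other ages, and macrophage-like cells made up more of the selected P28 wells than of the others. Thinned P28 cells held Ccnd2 in 8.47 to 12.4% of macrophage-like and 19.1 to 39.4% of CM-like cells. The part of class make-up in these contrasts was not tested. Ccnd1 was seen more often in the selected wells at P4 (38.1 and 27.6%) and in the knockdown samples (21.4 and 12.6%), and Ccnd2 less often (32.7 and 53.2% at P4, 14.3 and 34.9% in the knockdown samples).

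At P7 the contrast between 170 and 1883 wells was of the same kind, with Pclaf in 57.1 and 14.1%, Ccne2 in 20.6 and 6.64%, Pcna in 23.5 and 15.8%, Ccnd1 in 42.4 and 42.4% and Ccnd2 in 34.1 and 41.4%. Mki67 was seen in 32.9% and Top2a in 29.8% of the P7 wells under 10 genes.

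**Figure D5:**
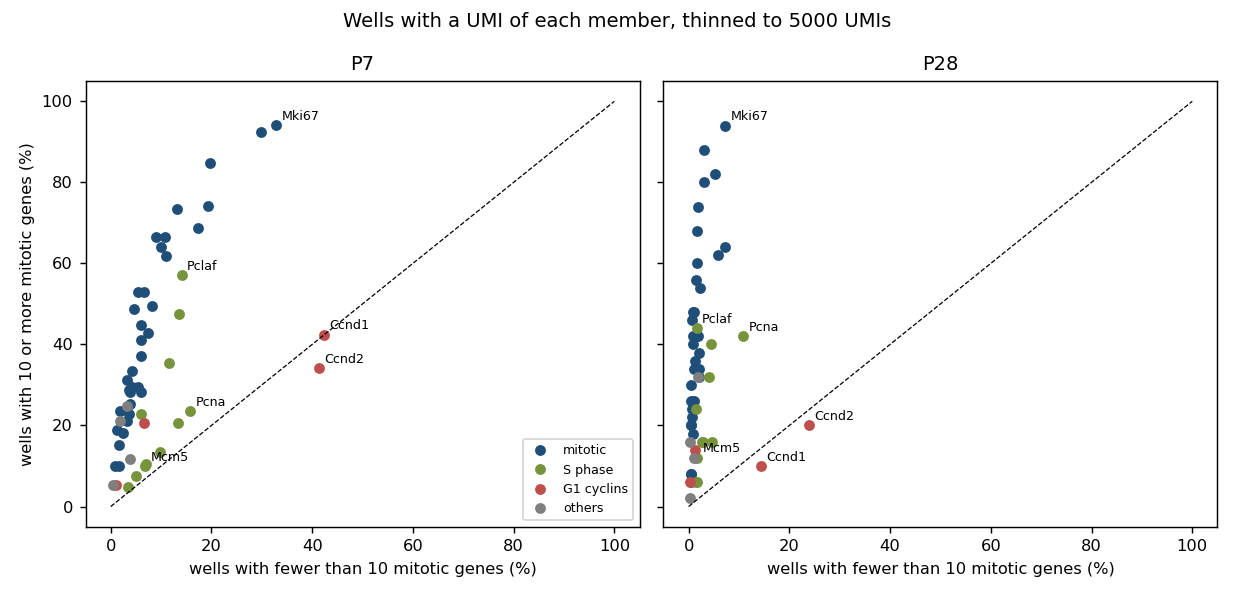
Percent of wells with a UMI of each member, in wells with 10 or more mitotic genes (vertical axis) against wells with fewer (horizontal axis), at P7 (170 and 1883 wells) and P28 (50 and 3651 wells), coloured by list. Ccnd1 lies at or under equal shares at both ages (42.4 and 42.4% at P7, 10 and 14.3% at P28), whereas Mki67 (94.1 and 32.9% at P7, 94.0 and 7.29% at P28) lies above them. The dashed line marks equal shares, and wells of all classes are pooled.

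A list of 41 regulators of the cycle was read beside the members. In CM-like cells Foxm1, a transcription factor of mitotic genes, was lower (log2 change -3.60, SE 0.93, edgeR adjusted p = 0.0209), and Cdkn1c, an inhibitor of cyclin-dependent kinases, and E2f2 were higher (2.34 and 3.15), which makes 1 lower and 2 higher of 39 tested, near the 3.70% lower and 5.41% higher of all genes. In endothelial-like cells Foxm1, E2f1, E2f7, E2f8 and Cdc25c were lower and Cdkn1a higher, of 40 tested, against 2.95% lower and 3.11% higher of all genes. In fibroblast-like cells 1 was lower and 2 were higher of 40 (2.13 and 1.77% of all genes), and in macrophage-like cells 0 and 1 of 29 (1.33 and 1.65%). In endothelial-like sums Cdkn1a, which encodes the inhibitor p21, rose from 67.8 to 119 CPM early to 299 to 1253 CPM late (log2 change 3.06, SE 0.39, edgeR adjusted p = 0.00010). It was also higher in fibroblast-like (2.40) and macrophage-like cells (2.00), but not in CM-like cells, where it stood at 53.8 to 101 CPM early and 51.8 to 211 CPM late. Digestion changed between the same ages, and its part in the change of Cdkn1a cannot be told apart from that of age.

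The question of the knockdown was whether less Jun changes the hearts' cells, with 2 animals per hairpin. Jun itself was at 24.7 and 30.2 CPM with shJun and at 54.8 and 61.4 CPM with shNT in CM-like sums, without overlap (log2 change -1.08, SE 0.23), and did not pass (edgeR adjusted p = 0.999). In endothelial-like, fibroblast-like and macrophage-like sums its log2 change was 0.43, 0.00 and -0.37. No member passed in any class in edgeR, of 50, 45, 34 and 44 tested, nor did any other gene (0% of all genes). Members with an unadjusted p under 0.05 in edgeR were 0, 3, 2 and 1, against 3.02, 8.24, 4.57 and 4.42% of all genes, and are not read as a result. DESeq2 called 1 member in endothelial-like cells, and its share over all genes was not counted.

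Wells with 3 or more mitotic genes were 1.21 and 2.12% of CM-like wells with shJun (9 of 745 and 15 of 706) and 0.644 and 0.972% with shNT (6 of 932 and 6 of 617). The animals did not overlap, with means of 1.67 and 0.808%, and the exact permutation p of 0.333 is the smallest that 2 against 2 animals allow. Endothelial-like shares were 0 and 4.02% with shJun and 3.23 and 1.63% with shNT, fibroblast-like shares 0.837 and 0.775% and 2.15 and 1.68%, and macrophage-like shares 1.16 and 8.16% and 9.28 and 5.48%. Values of both hairpins overlapped in endothelial-like and macrophage-like cells, and the exact permutation p was 1, 0.333 and 0.667 in the 3 classes. At 10 genes the CM-like wells were 0 and 1 with shJun and 2 and 1 with shNT, the endothelial-like wells 0 and 0 and 3 and 0, and the macrophage-like wells 0 and 2 and 3 and 2. No fibroblast-like well passed with either hairpin. These counts do not have the order seen at 3 genes in CM-like cells, and no direction is read from either.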

How the data were processed

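Single-cell RNA-seq of 18 nanowell chips was used. As deposited by the authors, each matrix holds 1 raw UMI count for every gene in every well, made by trimming with cutadapt, alignment to mm10 with STAR 2.5.2b and assignment to Ensembl genes with featureCounts (Subread 1.4.6-p1), with reads collapsed by UMI. Well reports deposited with them gave the hairpin and animal of each knockdown cell. A 3 prime count per gene was not scaled by length, so levels are compared within a gene.

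Here a cell passed with at least 500 genes and a log10 UMI count within 2 SD of its group's mean. Cells were clustered per stage or animal without cell cycle genes (leidenalg 0.10.2) and named from lists of 8 markers, so names can differ from the study's. Spike-ins, mitochondrial genes and the reporter stayed out, and no doublet caller was run because wells had been imaged for single cells. Shares used cells thinned to 5000 UMIs on chips with at least 20 such cells. UMIs were summed per class and chip and tested in edgeR 4.0.16 (TMM, filterByExpr, glmQLFTest, adjusted p under 0.05) with all 4 stages in 1 fit, and DESeq2 1.42.0 was an alternative. The code was tested on simulated data. The members, gene lists and tests were chosen with earlier results of these data known. Named genes are a fixed set of 15, the 5 members with the smallest p per class, persisting members, up to 5 called regulators per class and members called in the smaller contrasts. Others were named after their values were seen. Alternatives were another scaling, filters, depth, sums per animal, classes called cell by cell, mixed cells left out and each chip left out.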

Additional observations from a re-analysis of the deposited data

Results flagged for a closer look

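A chip stood apart in 2 of the fibroblast-like P28 groups of 4 chips, by the gap between the farthest chip and its neighbour set against the whole range. Prc1 was at 33.2 CPM on replicate 2, against 12.6, 12.8 and 13.9 CPM on the others. Ccne1 was at 16.5 CPM on replicate 6, against 0, 0.313 and 0.467 CPM. Chance gives such a gap in about 1 of 20 groups, and 15 genes were examined.

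Cell classes outside the comparisons above also held wells with 10 or more mitotic genes. Mural-like cells, the pericytes and smooth muscle cells of vessels, had 15 of 104 such wells at P4 (14.4%) and 26 of 266 at P7 (9.77%). T-cell-like cells at P28 had 11 of 123 (8.94%, exact binomial interval 4.55 to 15.4%), with 1 of 13, 6 of 72, 2 of 17, 0 of 2 and 2 of 19 on the 5 chips that held them. A difference from other classes was not tested. T-cell-like cells of the knockdown samples had 9 of 140. The markers of other cell types in these wells were not tested.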

How the results depend on the processing

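The share of wells with 3 or more mitotic genes was lower late than early under all 86 alternatives, and 13 of these no longer passed. Without P28 the differences were -26.7 points (exact p = 0.20), -53.1, -38.5 and -41.2 points (exact p = 0.133 each) for CM-like, endothelial-like, fibroblast-like and macrophage-like cells. With each chip left out in turn they ranged from -28.5 to -19.1, -54.8 to -47.4, -39.3 to -31.7 and -40.4 to -32.7. With a CM-like chip left out, the smallest exact permutation p possible is 0.0571 or 0.0952, so no CM-like difference could pass. At 10 genes the CM-like difference of -6.73 ranged from -7.35 to -5.9 with each chip left out, where for the same reason none could pass. The macrophage-like difference was -4.58 (exact p = 0.206) and fibroblast-like minus macrophage-like turned to 2.49 points (exact p = 0.62). Leaving out a chip moved the class comparisons between -16.9 and -12.7, -7.75 and -2.55, and 6.76 and 11.4 points.

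The number of members called late against early in edgeR was 16 in CM-like cells with each cell thinned to at most 5000 UMIs, 25 in endothelial-like cells with sums per named animal and, with DESeq2, 18 in macrophage-like cells. Leaving out a chip gave 27 to 39, 29 to 42, 23 (without P7 replicate 2) to 40 and 6 to 18 (without P14 replicate 2). No alternative called a member higher. For P7 against P4 in CM-like cells the number was 3 with DESeq2 and without the filter, 0 with sums per animal, thinning, 1000 genes, 10 cells or the globin-led clusters, and 0 to 3 without a chip, and in the other classes it stayed at 0 whichever chip was left out. For P28 against P14, DESeq2 gave 2, 6, 9 and 2, no filter 5, 4, 9 and 2, and leaving out a chip 0 to 1, 0 to 3, 0 to 1 and 0 to 2, and the endothelial-like number was 0 with sums per animal, with 10 cells and with classes called cell by cell. DESeq2 called 1 member in endothelial-like cells for shJun against shNT, where leaving out an animal gave 0 in each class and the fit with the replicate block gave 0 in each class. In the comparison of macrophage-like with CM-like, endothelial-like and fibroblast-like cells, no filter gave 5, 2 and 8, leaving out mixed cells 1, 0 and 1, and leaving out a chip 0 to 4, 0 to 7 and 0 to 6, the highest each without P14 replicate 1. The block paired animals that shared chips. In CM-like cells Cdk1 and Ccnb1 turned to 0.66 and 0.59 with thinning. Of 3556 values of single genes under an alternative, 3411 kept their direction and side of the threshold, 81 lost and 62 gained a call and 2 reversed. The shares of all genes called under these alternatives were not counted, and the causes were not tested.

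Scaling by library size alone moved the median over all genes from 0.39 to -0.21, -0.02 to -0.31, -0.16 to -0.40 and -0.01 to -0.36, and the percent of calls that were lower from 40.6 to 81.9, 48.7 to 71.4, 54.7 to 69.5 and 44.7 to 72.6, with members' medians of -3.48, -3.81, -4.89 and -2.42. Depth limits shares of single genes, since 1 UMI in a cell is the smallest value and free RNA reaches it.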

Other observations

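Of 70 other cell cycle genes that were in none of the members' lists, 69 were seen more often in the P4 wells with 10 or more mitotic genes than in the other P4 wells. The number was 68 for P7, 47 for P14, 68 for P28 and 64 for the knockdown samples. How many of all genes were seen more often in these wells was not counted, so the numbers describe the wells and are not a test. The median share of wells with such a gene was 23.2 against 3.82% at P4, 21.5 against 4.38% at P7, 20 against 0.458% at P14, 18.0 against 1.37% at P28 and 14.3 against 0.697% in the knockdown samples. At P14 this rests on 5 wells.

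Control wells of the chips, marked as controls in the well reports, held 4 UMIs of mitotic genes among 2177 at P4 and P7 (1837 CPM), 7 among 9249 at P14 and P28 (757 CPM) and 9 among 40364 in the knockdown samples (223 CPM). Wells with a cell and under 10 mitotic genes held 1428, 216 and 161 CPM. Both rates were highest at P4 and P7 and lowest in the knockdown samples.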
